A study of Mus musculus with 7 samples.

Results

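The collagen gene family was examined in the contused spinal cord of mice with and without a germ line knockout of Bmal1. Its members were all rows of the count table whose mouse protein-coding symbol reads Col, a number, a and a number, with no limit on level. This gave 44 of the 21965 genes, and 42 of the 44 had enough counts to be tested. They comprised 11 fibrillar chains, 6 basement membrane (type IV) chains, 9 FACIT chains, 7 beaded filament chains, 2 multiplexins, 4 transmembrane collagens, 3 short-chain network chains and 2 others.

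Collagens are extracellular matrix proteins built from chains that wind into triple helices. Fibrillar collagens form the tension-bearing fibers of connective tissue, FACIT collagens sit on the surface of those fibers, type IV collagen forms the sheet of basement membranes, and transmembrane collagens stay anchored in the cell surface. In the spinal cord, fibrillar collagen is normally found in the meninges and around vessels, type IV collagen outlines the vessels, and after injury fibroblast-like cells lay down a fibrous scar.

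RNASeq was made from a 5 mm segment spanning the epicenter of a moderate T9 contusion (50 kdyn) at dpi 3, with 1 library per mouse. The 3 libraries labelled Bmal1-/- came from 2 females and 1 male of the strain B6.129-Arntltm1Bra/J, a germ line knockout that affects all cells. The 4 WT libraries came from 2 female and 2 male C57BL/6 mice (C57Bl/6 J in the study's methods), 1 of them a littermate of the knockouts and the others purchased. Replicates 1 and 2 of both groups were female, and the other replicates were male. The mice were 8 to 10 weeks old and matched for age. Both groups were injured, both were perfused with saline and collected in the same morning hours, and no uninjured cord was analysed here, so the comparison is between genotypes after injury.

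The libraries held 38529644 to 44096737 counts. Levels are given as CPM, counts scaled to library size and for library composition, and as CPM per kilobase of exon where different genes are compared. Values are listed in the order of the replicates, with those of the libraries labelled Bmal1-/- first and those of WT after the word against. The astrocyte marker Gfap (7457 to 12660 CPM) and the neuronal marker Snap25 (456 to 1689 CPM) were abundant in all 7 libraries. Arntl, which encodes BMAL1, had 24.1, 24.2 and 22.5 CPM in the mice labelled Bmal1-/- and 14.7, 15.3, 11.9 and 13.4 CPM in WT. Gene counts do not separate the deleted exons, and an antisense gene overlaps Arntl, so these values do not check the label. WT replicate 3 had the lowest summed neuronal markers (2523 CPM) and the highest summed macrophage and microglia markers (13280 CPM) of all libraries, and Bmal1-/- replicate 2 differed from the other libraries labelled Bmal1-/- in the markers of fibroblasts given below.

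Genotypes were compared by edgeR's quasi-likelihood test over 15743 genes with a threshold of 0.05 on the adjusted p. Of the 42 tested collagen genes, 2 were called higher (Col5a3 and Col20a1) and 1 was called lower (Col23a1) in the libraries labelled Bmal1-/-. Among all genes tested, 0.654% were called higher and 0.915% lower. The fitted log2 fold change was negative for 24 members and positive for 18, with a median of -0.050 against -0.0057 over all genes. By DESeq2 the count was 2 lower (Col23a1 and Col28a1) and 3 higher (Col5a3, Col20a1 and Col13a1), where that test called 4.87% and 3.03% of 18916 genes. DESeq2 gave a p for 41 of the 44 members and none for Col1a1, Col1a2 and Col6a3, so it did not test those chains. Thus for most of the family edgeR's test did not separate the genotypes from the spread between mice. At an unadjusted p under 0.05 there were 9 of the 42 members, where 20.9% of all genes tested passed.

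**Figure D1:**
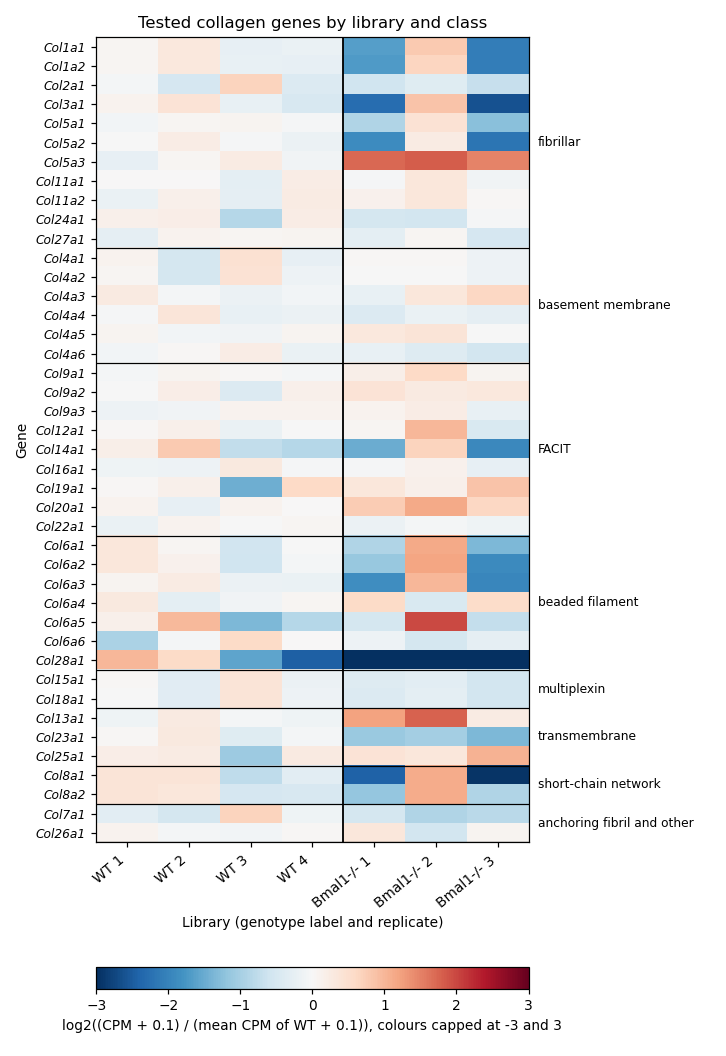
Heat map of the 42 tested collagen genes (rows, grouped by class) in the 7 libraries (columns), coloured by log2((CPM + 0.1) / (mean CPM of WT + 0.1)) and capped at -3 and 3. Col5a3 is red and Col23a1 blue in all 3 libraries labelled Bmal1-/-, while Col1a1, Col1a2, Col3a1, Col5a2 and the abundant type VI chains are blue in replicates 1 and 3 and pale red in replicate 2.

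Of the fibrillar class, 8 of 11 members had a negative and 3 a positive fold change, the class median was -0.39, and Col5a3 was its one call. Col5a3 encodes the alpha3 chain of type V collagen, a minor fibrillar collagen that is incorporated into heterotypic fibrils. The gene (ENSMUSG00000004098) lies on the minus strand of chromosome 9 from 20770050 to 20815067 (GRCm38). Col5a3 had 209, 222 and 177 CPM in the mice labelled Bmal1-/- and 53.4, 65.8, 75.2 and 58.7 CPM in WT. The lowest library labelled Bmal1-/- was far above the highest WT library, and the groups did not overlap. The means were 203 ± 23.4 (SD, n = 3) and 63.3 ± 9.43 CPM (SD, n = 4), a 3.20-fold difference (log2 fold change 1.68, standard error 0.13, adjusted p = 0.00167 by edgeR's quasi-likelihood test). The call was made in all 7 fits that left out a single library, with log2 fold changes from 1.60 to 1.77. In those fits 0.359%, 1.13% and 0.46% of all genes were called without Bmal1-/- replicates 1, 2 and 3, and 0.517%, 0.894%, 4.66% and 0.797% without WT replicates 1, 2, 3 and 4. With a replicate block Col5a3 was not called (log2 fold change 1.65, adjusted p = 0.144 by edgeR's quasi-likelihood test). Per kilobase, Col5a3 ranked 8 of the 44 collagen genes by its mean over all libraries.

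Because Col5a3 was the member with the clearest difference, its promoter window is shown with those of the other called genes, Col20a1 and Col23a1. The windows run from 250 bases before to 50 bases after the RefSeq start on GRCm38.p6, written on the gene's own strand. Capitals mark CCAAT, the core of the CCAAT box, on either strand.
Col5a3 promoter, chr9:20815018-20815317, minus strand: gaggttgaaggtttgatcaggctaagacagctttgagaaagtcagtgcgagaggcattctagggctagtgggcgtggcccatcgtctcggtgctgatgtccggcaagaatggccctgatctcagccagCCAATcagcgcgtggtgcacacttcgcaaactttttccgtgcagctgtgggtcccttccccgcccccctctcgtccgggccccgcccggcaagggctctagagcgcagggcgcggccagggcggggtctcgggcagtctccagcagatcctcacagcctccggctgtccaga
Col20a1 promoter, chr2:180986285-180986584, plus strand: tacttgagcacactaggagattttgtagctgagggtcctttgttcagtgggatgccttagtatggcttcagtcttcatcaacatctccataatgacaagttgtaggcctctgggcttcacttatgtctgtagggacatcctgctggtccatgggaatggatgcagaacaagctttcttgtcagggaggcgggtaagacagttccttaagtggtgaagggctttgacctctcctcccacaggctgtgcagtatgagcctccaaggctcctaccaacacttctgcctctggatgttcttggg
Col23a1 promoter, chr11:51289670-51289969, plus strand: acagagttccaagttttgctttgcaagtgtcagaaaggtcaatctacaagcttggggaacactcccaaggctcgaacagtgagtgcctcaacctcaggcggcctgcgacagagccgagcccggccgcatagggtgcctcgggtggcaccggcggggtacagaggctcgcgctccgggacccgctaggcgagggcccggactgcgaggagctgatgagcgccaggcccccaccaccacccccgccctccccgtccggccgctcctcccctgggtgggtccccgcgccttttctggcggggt

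A single CCAAT stood in the Col5a3 window, 122 bases before the start, and the letters were in neither of the other windows. RefSeq windows were matched for 35 of the 44 members. Of these, 12 (34.3%) held CCAAT, against 37.4% of 32817 promoter windows of all genes, and 5 (14.3%) held TATAAA, against 13.6%. Some RefSeq starts lay far from the annotated gene start, by 49344 bases for Col25a1, 1408 for Col27a1, 804 for Col1a2 and 299 for Col11a2. For the other matched members the distance was at most 181 bases. Col25a1 and Col1a2 are among those with CCAAT, and Col11a2 is among those with TATAAA. The palindrome CACGTG, the E-box that BMAL1 with its partner CLOCK is known to bind, was in 0 of the 35 windows and in 7.1% of all windows. TTATGTAA, the D-box of clock output factors, was in 0 of the 35 and in 0.9% of all. Both strands were searched, none of the 4 motifs contains another, and a search of these windows says nothing of sites elsewhere.

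**Figure D2:**
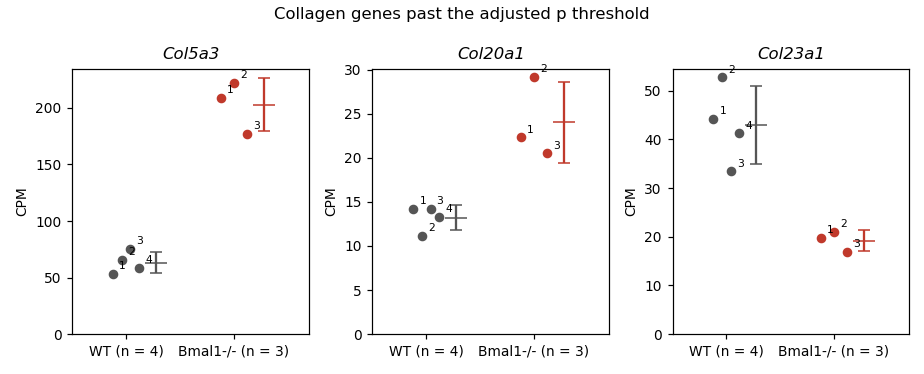
CPM of Col5a3, Col20a1 and Col23a1 in each library (points, numbered by replicate), with the mean and SD of each group beside them and axes from 0. The 3 libraries labelled Bmal1-/- lie above all 4 WT libraries for Col5a3 and Col20a1 and below them for Col23a1.

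The major fibrillar chains behaved otherwise. Col1a1 and Col1a2 encode the chains of type I collagen, the main collagen of scar and connective tissue. Col1a1 had 119, 641 and 88.2 CPM in the mice labelled Bmal1-/- and 389, 461, 315 and 324 CPM in WT. Col1a2 had 123, 628 and 96.0 CPM and, in WT, 422, 503, 347 and 340 CPM. Col3a1, the chain of type III collagen that accompanies type I in early scars and vessel walls, had 86.1, 759 and 69.3 CPM against 457, 566, 363 and 304 CPM. For all 3 genes, Bmal1-/- replicate 2 was the highest of the 7 libraries, and replicates 1 and 3 were below every WT library. The log2 fold changes were -0.40 for Col1a1, -0.51 for Col1a2 and -0.47 for Col3a1, with standard errors of 0.65, 0.63 and 0.81, and none passed the test.

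The other type V chains, which regulate the diameter of type I fibrils, followed this pattern and not that of Col5a3. Col5a1 had 37.5, 93.9 and 29.3 CPM in the mice labelled Bmal1-/- and 66.1, 72.6, 73.7 and 67.9 CPM in WT. Col5a2 had 29.4, 130.1 and 23.8 CPM against 107, 127, 106 and 95.7 CPM. Their log2 fold changes were -0.39 and -0.83 (standard errors 0.37 and 0.57), neither past the threshold. Col5a1 overlaps antisense genes, and the strand setting of the counting is not given in the sources used here, so its level is less certain. The same holds for Col4a3, Col6a4, Col6a6, Col9a3, Col10a1, Col15a1 and Col22a1, which overlap genes on the opposite strand, and for Col3a1 and Col7a1, which overlap genes on their own strand.

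This high value in replicate 2 with low values in replicates 1 and 3 was shared by 10 of the 42 members: Col1a1, Col1a2, Col3a1, Col5a1, Col5a2, Col6a1, Col6a2, Col6a3, Col8a1 and Col8a2. Of all genes tested, 0.877% had it. The highest library labelled Bmal1-/- exceeded the lowest by more than 3-fold for 12 of the 42 members, the same 10 with Col6a5 and Col14a1, while 2.12% of all genes did. In WT this spread was seen for 5 of 42 members, and for 4.81% of all genes. The pattern was chosen after the values were seen, so these shares are a description.

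Fibroblast markers without collagens varied in the same libraries. The summed level of the 15 markers was 117, 591 and 96.0 CPM in the libraries labelled Bmal1-/- and 593, 756, 444 and 347 CPM in WT. Replicates 1 and 3 were below every WT library and replicate 2 was within the WT range. Dcn, a defining marker that encodes decorin, had 37.6, 170 and 35.2 CPM against 226, 254, 161 and 116 CPM. No defining marker was at 0, 14 of the 15 had a negative fold change, and 1 (Fmod, a collagen-binding proteoglycan) was called lower. This count and the counts of called markers that follow stand beside the 0.915% of all genes tested that were called lower. The part of fibroblast number in the collagen levels was not tested, and in bulk tissue fewer cells of a type and less RNA per cell cannot be told apart.

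**Figure D3:**
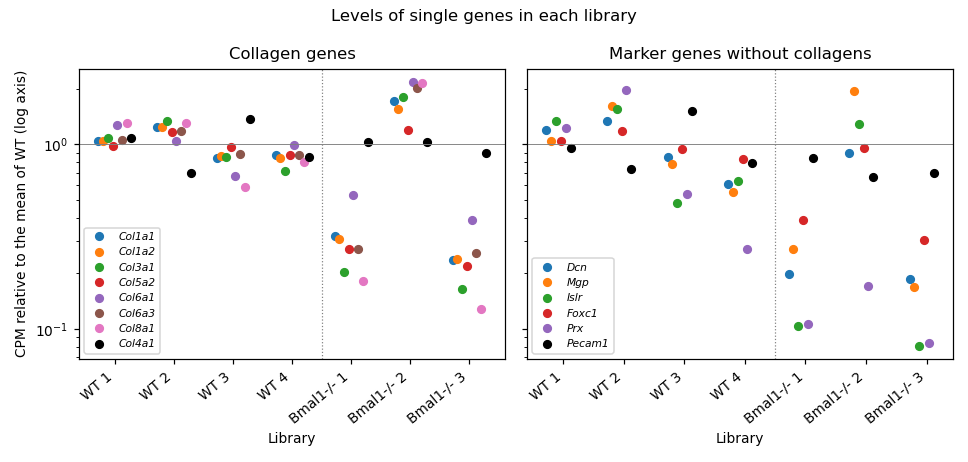
CPM of 8 collagen genes (left) and 6 marker genes (right) in each library, relative to the mean of WT on a log axis. Bmal1-/- replicate 2 lies at or above the WT mean for the plotted collagens, and replicates 1 and 3 lie well below it for all of them but Col4a1 (black), which stays near 1.

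Without Bmal1-/- replicate 2, which leaves 2 libraries against 4, 8 members were called lower and 1 higher (Col5a3), where 0.838% of 15872 genes were called lower and 0.29% higher. The 8 were Col1a1, Col1a2, Col3a1, Col5a1, Col5a2, Col6a3, Col8a1 and Col23a1. The log2 fold change was then -1.84 for Col1a1 (adjusted p = 0.0212 by edgeR's quasi-likelihood test), -2.44 for Col3a1 (adjusted p = 0.0212) and -2.03 for Col5a2 (adjusted p = 0.00522). The median over the 42 members moved to -0.31. The inclusion of a single mouse thus changed the call of all of these but Col23a1. Replicate 2 was singled out because its high values in the genes other than Col23a1 had been seen. For all of the 8, Col23a1 included, the 2 libraries that remain were known to lie below every WT library. These calls and p-values are therefore a description and not an independent test.

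**Figure D4:**
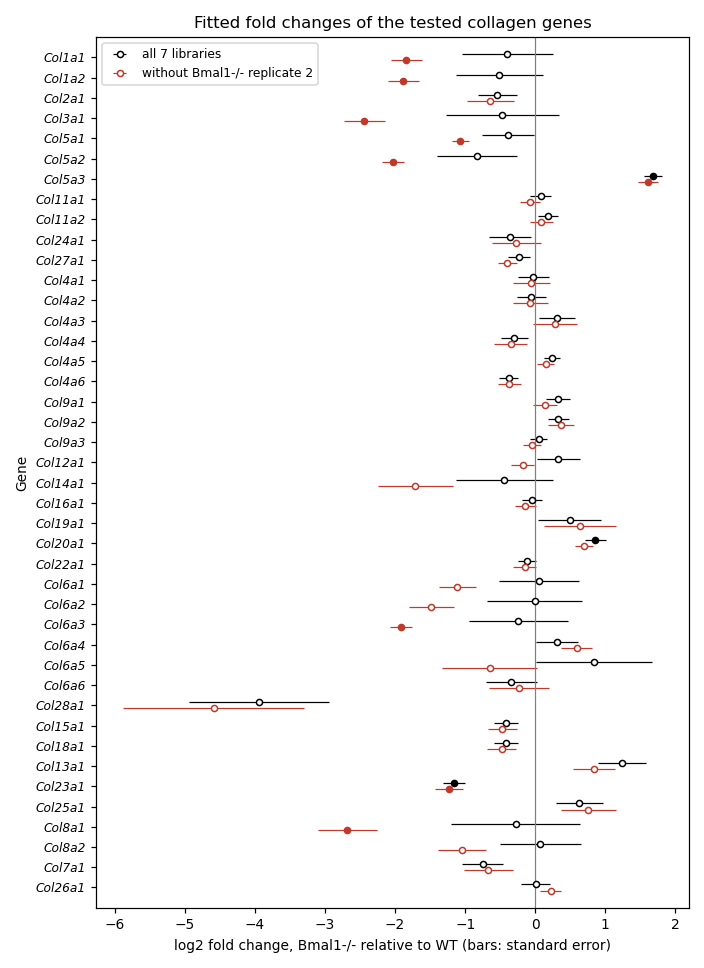
Fitted log2 fold change with its standard error for each tested collagen gene, with all 7 libraries (black) and without Bmal1-/- replicate 2 (red). Filled points passed the adjusted p threshold of 0.05, which Col5a3, Col20a1 and Col23a1 did with all libraries, while 8 genes were called lower and Col5a3 higher without replicate 2.

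None of the 6 basement membrane members spread by over 3-fold in either group. The same held for the tested multiplexins, transmembrane collagens and the 2 others. Of the 11 fibrillar members, 5 spread by over 3-fold among the libraries labelled Bmal1-/- and 0 did in WT. The median log2 fold change of the basement membrane class was -0.040, with 4 negative and 2 positive values and 0 calls by edgeR or DESeq2. In this class 1 member had an unadjusted p under the threshold. Col4a1 and Col4a2 encode the chains of the ubiquitous type IV network. Col4a1 had 320, 321 and 278 CPM in the mice labelled Bmal1-/- and 337, 217, 426 and 265 CPM in WT. Col4a2 had 199, 197 and 181 CPM against 210, 139, 272 and 179 CPM. For both genes the libraries labelled Bmal1-/- lay inside the WT range, in which WT replicate 3 was the highest and WT replicate 2 the lowest. Their log2 fold changes were -0.024 and -0.057 (standard errors 0.22 and 0.21). Endothelial markers were highest in WT replicate 3 too, with a summed level of 968 CPM against 600 to 669 CPM in the other WT libraries and 499 to 578 CPM in the libraries labelled Bmal1-/-. All 12 endothelial markers had a negative fold change and 1 (Cdh5, VE-cadherin) was called, and their part in the type IV levels was not tested.

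Col4a1 and Col4a2 lie head to head on chromosome 8, and their windows are shown because these starts are 21 bases apart and 78 bases of each window are shared, read on opposite strands. Capitals mark CCAAT or its reverse complement ATTGG.
Col4a1 promoter, chr8:11312777-11313076, minus strand: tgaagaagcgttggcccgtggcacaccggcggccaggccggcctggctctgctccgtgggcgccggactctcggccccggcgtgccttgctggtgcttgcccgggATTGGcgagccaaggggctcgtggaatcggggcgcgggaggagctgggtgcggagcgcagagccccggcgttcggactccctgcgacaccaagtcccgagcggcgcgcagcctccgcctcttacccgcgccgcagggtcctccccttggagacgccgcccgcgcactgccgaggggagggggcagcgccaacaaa
Col4a2 promoter, chr8:11312555-11312854, plus strand: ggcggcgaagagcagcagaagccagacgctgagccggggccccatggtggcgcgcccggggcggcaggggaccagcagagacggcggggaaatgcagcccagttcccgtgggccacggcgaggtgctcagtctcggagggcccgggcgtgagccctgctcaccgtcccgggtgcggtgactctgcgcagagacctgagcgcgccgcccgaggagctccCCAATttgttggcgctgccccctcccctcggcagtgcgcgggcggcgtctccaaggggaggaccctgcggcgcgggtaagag

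The Col4a1 window held ATTGG 145 bases before its start, and the Col4a2 window held CCAAT 32 bases before its start. These are separate sites, and neither lies wholly within the shared bases. The first exons of Col4a1 and Col4a2 overlap, so some reads could have been assigned to either gene if counting ignored strand.

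The other type IV chains were less abundant. Col4a5, which with Col4a6 forms a network of smooth muscle and some epithelial basement membranes, had 28.3, 30.1 and 22.6 CPM against 24.2, 21.7, 21.4 and 24.4 CPM in WT. Col4a6 had 7.98, 7.13 and 6.35 CPM against 8.77, 9.49, 10.8 and 8.10 CPM. Its groups did not overlap, but its log2 fold change of -0.38 (standard error 0.13) did not pass the test (adjusted p = 0.192 by edgeR's quasi-likelihood test). Col4a3 (0.763, 1.18 and 1.45 CPM against 1.12, 0.874, 0.799 and 0.857) and Col4a4 (1.45, 1.69 and 1.62 CPM against 1.91, 2.55, 1.67 and 1.72), the chains best known from the kidney glomerulus, were near 1 to 2 CPM and overlapped. In all, groups did not overlap for 3 members that were lower (Col4a6, Col23a1 and Col28a1) and 5 that were higher (Col5a3, Col9a1, Col9a2, Col20a1 and Col25a1), where 13.5% and 13.4% of all genes did so.

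FACIT chains had the opposite balance to the fibrillar class, with 6 positive and 3 negative fold changes and a median of 0.32. Col20a1 was the 1 member called. It encodes a FACIT chain, and the gene (ENSMUSG00000016356) lies on the plus strand of chromosome 2 from 180986535 to 181018363. Col20a1 had 22.3, 29.2 and 20.5 CPM in the mice labelled Bmal1-/- and 14.2, 11.1, 14.2 and 13.3 CPM in WT. The groups did not overlap, and the fitted difference was 0.86 in log2 units (its standard error 0.15, adjusted p = 0.0402 by edgeR's quasi-likelihood test). The direction held with each library left out, at 0.70 to 0.96, but the call was made in 1 of these 7 fits, the one without WT replicate 3. Nor was the call made with sex as a covariate (adjusted p = 0.0831) or with a replicate block (adjusted p = 0.4135, both by edgeR's quasi-likelihood test). Col20a1 shares exons with BX649560.1 on the same strand, so its counts are uncertain.

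Col16a1 and Col12a1, which link fibrils to other matrix proteins, were the most abundant FACIT genes per kilobase. Col16a1 had 190, 216 and 165 CPM in the mice labelled Bmal1-/- and 178, 177, 240 and 190 CPM in WT, with overlapping groups. Col12a1 had 151, 293 and 106 CPM against 150, 163, 127 and 144 CPM, again with replicate 2 the highest. Col9a1 and Col9a2, chains of type IX collagen, which decorates cartilage fibrils, did not overlap between groups. Col9a1 was at 1.85, 2.53 and 1.75 CPM against 1.58, 1.75, 1.67 and 1.56 CPM, and Col9a2 at 12.8, 11.6 and 12 CPM against 9.57, 11.0, 7.24 and 10.7 CPM. For Col9a1 the nearest libraries barely differed, at 1.751 CPM (69 counts) in Bmal1-/- replicate 3 and 1.748 CPM (68 counts) in WT replicate 2. The differences were small, with log2 fold changes of 0.32 and 0.33, and did not pass (adjusted p = 0.312 and 0.255 by edgeR's quasi-likelihood test). Bone and cartilage markers summed to 44.4 to 51.1 CPM against 25.9 to 58.5 CPM, with 1 of 11 tested markers called lower.

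Among the beaded filament chains, Col6a1, Col6a2 and Col6a3 form the microfibrils that surround cells in connective tissue. Col6a1 had 41.7, 171 and 30.7 CPM in the mice labelled Bmal1-/- and 100.1, 82.3, 53.0 and 78.3 CPM in WT. Col6a2 had 31.7, 159 and 18.5 CPM against 89.1, 77.4, 46.8 and 68.1 CPM. Col6a3 had 13.01, 96.4 and 12.3 CPM against 50.8, 56.7, 42.4 and 41.7 CPM. All 3 had the replicate 2 pattern, and their log2 fold changes of 0.051, -0.0093 and -0.24 had standard errors from 0.57 to 0.70. The direction of these genes changed with the libraries included. Col6a4, Col6a5 and Col6a6 are related chains with narrower tissue distribution. Col6a4 had 2.11, 0.975 and 2.06 CPM against 1.71, 1.11, 1.27 and 1.44 CPM. Col6a5 had 1.47, 8.94 and 1.29 CPM against 2.42, 4.34, 0.799 and 1.16 CPM, with replicate 2 the highest. Col6a6 had 1.17, 0.882 and 1.07 CPM against 0.638, 1.26, 2.02 and 1.34 CPM. The groups overlapped for all 3, with log2 fold changes of 0.31, 0.84 and -0.34 that did not pass.

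Col28a1 had the largest fitted difference of the family and was not called. It encodes a collagen known mainly from basement membranes of peripheral nerve. Col28a1 had 0.356, 0.928 and 0.330 CPM in the mice labelled Bmal1-/- and 16.7, 12.6, 2.72 and 1.44 CPM in WT. The groups did not overlap, but WT itself spread 11.6-fold, and the log2 fold change of -3.94 had a standard error of 1.00 (adjusted p = 0.108 by edgeR's quasi-likelihood test). The higher WT values were those of the females (16.7 and 12.6 CPM) and the lower those of the males (2.72 and 1.44 CPM). Whether sex accounts for this split was not tested. With sex as a covariate the call was made (adjusted p = 0.036 by edgeR's quasi-likelihood test). Schwann cell markers moved with it. The summed level of 6 markers was 71.3, 77.9 and 71.7 CPM against 133, 164, 91.7 and 85.1 CPM, and Prx, which encodes periaxin of myelinating Schwann cells, had 2.06, 3.30 and 1.62 CPM against 23.7, 37.7, 10.4 and 5.22 CPM. All 5 tested Schwann cell markers had negative fold changes, 1 was called, and Pmp2, at 0 in Bmal1-/- replicate 3 and at most 0.175 CPM elsewhere, was too low to test. Skeletal muscle markers were also lower, with summed levels of 6.91 to 9.37 CPM against 56.8 to 77.4 CPM. Of these 10 markers, 9 were called lower, where 0.915% of all genes tested were. The part of nerve root or muscle tissue in the segment in these values was not tested.

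Of the transmembrane collagens, Col23a1 was called lower. It encodes type XXIII collagen, whose ectodomain can be shed from the cell surface, and the gene (ENSMUSG00000063564) lies on the plus strand of chromosome 11 from 51289920 to 51583918. Col23a1 had 19.7, 21.1 and 16.9 CPM in the mice labelled Bmal1-/- and 44.2, 52.8, 33.4 and 41.3 CPM in WT. The groups did not overlap, and all 3 mice labelled Bmal1-/- were close to each other. The means were 19.2 ± 2.14 (SD, n = 3) and 42.9 ± 7.99 CPM (SD, n = 4), a 2.23-fold difference (log2 fold change -1.16, standard error 0.16, adjusted p = 0.0193 by edgeR's quasi-likelihood test). The call held in 3 of the 7 fits with a library left out, those without Bmal1-/- replicate 2, WT replicate 2 and WT replicate 3. In those 7 fits the log2 fold change stayed between -1.26 and -1.05. With a replicate block Col23a1 was not called (log2 fold change -1.16, adjusted p = 0.116 by edgeR's quasi-likelihood test).

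Col25a1, a transmembrane collagen of neurons, had 16.3, 15.4 and 25.0 CPM in the mice labelled Bmal1-/- and 14.0, 14.5, 5.69 and 14.6 CPM in WT. The groups did not overlap, by less than 1 CPM for the nearest pair, and the log2 fold change of 0.63 (standard error 0.34) did not pass. Neuronal markers summed to 5972 to 7084 CPM against 5561, 5856, 2523 and 4272 CPM, so WT replicate 3 was lowest for both. Col13a1, a transmembrane collagen of the neuromuscular junction, had 4.93, 7.27 and 2.46 CPM against 1.89, 2.52, 2.00 and 1.87 CPM. Replicate 3 overlapped with WT, and the gene had a log2 fold change of 1.24 (adjusted p = 0.123 by edgeR's quasi-likelihood test). Col17a1, a hemidesmosome collagen of skin, was at 0.125 to 0.254 CPM over all libraries and was too low for edgeR's test.

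The multiplexins Col18a1 and Col15a1 carry the C-terminal fragments endostatin and restin and are found in vessel basement membranes. Col18a1 had 52.7, 57.0 and 47.3 CPM in the mice labelled Bmal1-/- and 69.5, 55.4, 91.7 and 63.2 CPM in WT. Col15a1 had 19.8, 20.7 and 17.5 CPM against 26.5, 20.4, 33.6 and 23.0 CPM. In both genes WT replicate 3 was the highest library and WT replicate 2 fell among the libraries labelled Bmal1-/-, and both log2 fold changes were -0.42 (standard error 0.17, adjusted p = 0.225 and 0.229 by edgeR's quasi-likelihood test).

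Col8a1 and Col8a2, the short-chain network collagens of vessel walls and the cornea, had the replicate 2 pattern, which was widest in Col8a1. Col8a1 had 7.47, 88.4 and 5.23 CPM against 53.3, 53.7, 23.9 and 32.7 CPM, a 16.9-fold spread among the libraries labelled Bmal1-/-. Col8a2 had 3.38, 16.8 and 4.11 CPM against 10.2, 9.79, 5.44 and 5.47 CPM. Col10a1, the collagen of hypertrophic cartilage, was at 0.0254 to 0.332 CPM and was too low for edgeR's test. Col7a1, the anchoring fibril collagen of skin, had 10.6, 8.15 and 8.68 CPM against 12.4, 10.5, 24.3 and 14.1 CPM (log2 fold change -0.75, adjusted p = 0.212 by edgeR's quasi-likelihood test), and Col26a1, known from testis and ovary, had 5.21, 2.79 and 4.34 CPM against 4.41, 3.91, 3.84 and 4.21 CPM. The groups of all 4 tested genes overlapped or were split by replicate 2. The 9 tested members not given in full (Col2a1, Col9a3, Col11a1, Col11a2, Col14a1, Col19a1, Col22a1, Col24a1 and Col27a1) had log2 fold changes from -0.54 to 0.49, and none was called.

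On a scale of summed CPM per kilobase, the 44 genes reached 264, 559.9 and 224 in the libraries labelled Bmal1-/- and 395, 398, 381 and 337 in WT. Fibrillar chains made 34.7%, 54.1% and 33.9% of this in the libraries labelled Bmal1-/- and 46.3%, 54.7%, 42.4% and 45.6% in WT. The summed basement membrane level was 78.4, 78.4 and 69.1 against 81.9, 54.9, 103 and 67.4. Hence the libraries labelled Bmal1-/- differed among themselves mainly in fibrillar and beaded filament chains and were alike in type IV chains. By the mean over all libraries, Col1a1 (50.8 CPM per kilobase), Col4a1 (41.4), Col3a1 (37.9), Col4a2 (29.7) and Col16a1 (28.7) were the most abundant members. In counts, the family made up 0.196%, 0.442% and 0.165% of the libraries labelled Bmal1-/- and 0.268% to 0.328% of WT.

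**Figure D5:**
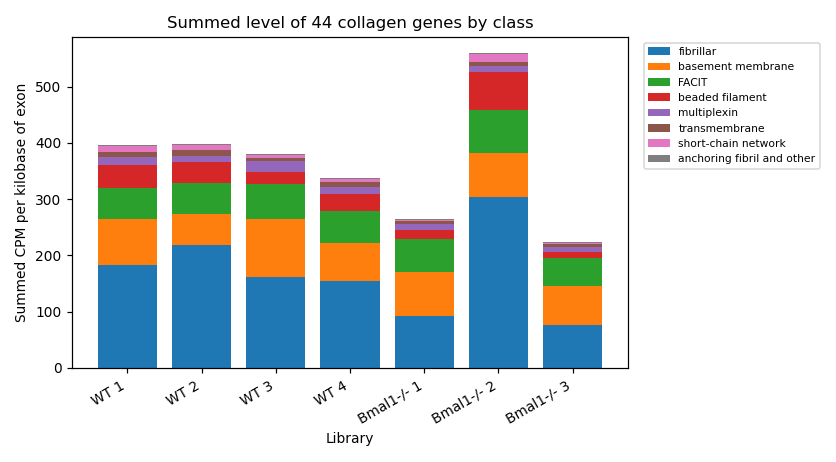
Summed CPM per kilobase of exon of the 44 collagen genes in each library, stacked by class. The bar of Bmal1-/- replicate 2 reaches 559.9 and those of replicates 1 and 3 reach 264 and 224, and the difference lies mostly in the fibrillar part (302.9 against 91.8 and 75.9).

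Chains were compared as log2 ratios of CPM per kilobase in 6 pairs, 5 of chains of the same collagen type and 1 across types, by exact two-sided permutation tests with Benjamini-Hochberg adjustment over the 6. With 3 against 4 libraries the smallest possible p is 0.0286. Col1a1 to Col1a2 was 0.87 ± 0.08 (SD, n = 3) in mice labelled Bmal1-/- and 0.81 ± 0.03 (SD, n = 4) in WT (exact p = 0.171). As a plain ratio it stayed between 1.71 and 1.93 in all 7 libraries, although Col1a1 itself varied 7.27-fold among those labelled Bmal1-/-. Col4a1 to Col4a2 was 0.50 ± 0.04 against 0.46 ± 0.05 (exact permutation p = 0.457), a plain ratio of 1.31 to 1.45. Col6a1 to Col6a2 was 1.34 ± 0.31 against 1.09 ± 0.05 (exact permutation p = 0.143), and Col1a1 to Col4a1, the pair across types, was -0.51 ± 1.47 against 0.47 ± 0.62 (exact permutation p = 0.257).

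The type V chains did not keep one ratio. Col5a3 to Col5a1 was 2.80, 1.56 and 2.91 on the log2 scale in the libraries labelled Bmal1-/- and 0.01, 0.18, 0.35 and 0.11 in WT. The groups did not overlap (difference 2.26, exact permutation p = 0.0286, adjusted 0.0857), and Col5a3 exceeded Col5a1 by 2.95 to 7.53-fold per kilobase in the libraries labelled Bmal1-/- and by 1.01 to 1.27-fold in WT. The pair was chosen with the rise of Col5a3 known, so the test is not independent of it. Col5a1 to Col5a2 was 0.53, -0.29 and 0.48 against -0.52, -0.63, -0.35 and -0.32 (difference 0.69, exact permutation p = 0.0286, adjusted 0.0857), again without overlap. Neither difference passed after adjustment over the 6 pairs.

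Genes that modify and anchor collagen were read from 4 further lists, and edgeR's quasi-likelihood test called 0 of their 57 tested genes in either direction, while DESeq2 called 7 lower and 2 higher (4.87% and 3.03% of all genes it tested). Named after their values were seen, the 7 were Serpinh1, Fkbp10 and P3h1 (folding and hydroxylation), Adamts14 (propeptide cleavage) and Nid1, Nid2 and Lamb1 (nidogens and a laminin chain), and the 2 were P4ha3, a prolyl 4-hydroxylase subunit, and Sparc. The counts at an unadjusted p under 0.05 that follow stand beside 20.9% of all genes. Of 20 genes of collagen hydroxylation and folding, 16 had a negative fold change (median -0.20) and 8 had an unadjusted p under 0.05. The most abundant were Hsp90b1, an endoplasmic reticulum chaperone, at 516 to 578 CPM against 584 to 774 CPM, and P4hb, a subunit of prolyl 4-hydroxylase, at 369 to 451 CPM against 465 to 711 CPM. Serpinh1, the collagen-specific chaperone HSP47, named after its values were seen, had 84.7, 152 and 64.1 CPM against 174, 191, 202 and 149.7 CPM, with replicates 1 and 3 below WT and replicate 2 at its lower edge.

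Of 14 genes of propeptide cleavage and crosslinking, 10 were negative (median -0.074, 3 with an unadjusted p under 0.05). Sparc, a collagen-binding matricellular protein, was the most abundant, at 2860 to 3389 CPM against 2434 to 2590 CPM with no overlap and a log2 fold change of 0.31 (adjusted p = 0.200 by edgeR's quasi-likelihood test), and Bmp1, the procollagen C-proteinase, overlapped at 141 to 178 CPM against 156 to 217 CPM. Of 11 tested collagen receptors, 9 were negative (median -0.22, 2 with an unadjusted p under 0.05). The receptor kinase Ddr1 was at 314 to 370 CPM against 328 to 368 CPM and the integrin subunit Itgb1 at 269.5 to 340.5 CPM against 332 to 431.5 CPM. Of 12 basement membrane partners of type IV collagen, 10 were negative (median -0.28, 3 with an unadjusted p under 0.05), and Agrn (agrin, 188 to 197 CPM against 178 to 218 CPM) and Lamc1 (the laminin gamma1 chain, 144 to 207 CPM against 133 to 149 CPM) were the most abundant.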

How the data were processed

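The authors deposited raw counts per gene, made with FastQC 0.10.1, Tophat2 on GRCm38 and HTSeq 0.10.0 from stranded poly-A libraries. The annotation release and the strand setting are not given in the sources used here. Genes were filtered with filterByExpr, normalized with TMM and tested with edgeR 4.0.16 (quasi-likelihood test, R 4.3.3) with Benjamini-Hochberg adjustment over 15743 genes. CPM are counts scaled by library size and TMM factor, and exon lengths and overlaps came from GENCODE release 21 for mouse, which matched 21939 of 21965 IDs. Chain ratios took a pseudocount of 0.5 counts. Promoter sequences came from RefSeq. The fits were tested on simulated data. Alternatives were RLE size factors, no filter beyond 1 count, DESeq2 1.42.0, sex as a covariate, a replicate block, removal of the GC and length trend, and each library left out. Values were given per library for called members, members without overlap, the 2 most abundant per length of each class, and chains of types I, III, IV, V and VI. Of each pathway list, called genes and the 2 of highest CPM were named. The members, classes, pairs and lists were chosen with earlier results of these data known. A listed marker gene is not reported here and was left out of its list. Plots were drawn with matplotlib 3.10.9 in python 3.11.15.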

Additional observations from a re-analysis of the deposited data

Results flagged for a closer look

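Col25a1 had 5.69 CPM in WT replicate 3, while the other WT libraries lay between 14.0 and 14.6 CPM. The gap to the next library was 0.930 of the group's range, above Dixon's 95% critical value for 4 libraries. In all, 38 such values were tested, and chance flags about 1 in 20 groups. Without WT replicate 3 the log2 fold change of Col25a1 was 0.40, against 0.63 with all libraries, and it was called in neither fit. Neuronal markers were also lowest in that library, at a summed 2523 CPM against 4272 to 5856 CPM, and their part in the low value was not tested.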

How the results depend on the processing

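The count of members called lower was 1, and it was 2 with the DESeq2 Wald test, 2 with sex as a covariate, 0 with a replicate block and 0 to 8 with single libraries left out. The count called higher was 2, and it was 3 with DESeq2, 1 with sex as a covariate, 0 with the replicate block and 1 to 2 with single libraries left out. RLE size factors, no filter and removal of the GC and length trend left both counts at their values. For these settings, the sex covariate and the block, the share of all genes called is not given here. Their counts are therefore not read as a result about the family. The median log2 fold change ran from -0.31, without Bmal1-/- replicate 2, to 0.041, without replicate 3. Over all genes, edgeR called 144 lower and 103 higher, and DESeq2 922 and 573. Samples with the same replicate number had correlations of -0.24, 0.12 and -0.44 in their deviations, so the numbers were not taken to pair mice. The block spends the fourth WT library on its own term, and the chain ratios under it were 0.74 for Col5a1 to Col5a2 and 2.24 for Col5a3 to Col5a1 (exact permutation p = 0.25 each, the smallest that 3 pairs allow). With single libraries left out, these ratios ran from 0.55 to 0.96 and from 2.02 to 2.69, with a smallest possible p of 0.0667 or 0.1. The fitted direction turned for the genes that follow, none of which was called with all libraries. With sex as a covariate the log2 fold change was 0.0040 for Col4a1, -0.27 for Col6a1 and -0.14 for Col8a2. With the block it was -0.35 for Col6a1, -0.39 for Col8a2 and -0.021 for Col26a1, and with the GC and length trend removed it was -0.032 for Col26a1 and -0.025 for Col11a1. With single libraries left out, the range was -1.84 to 0.026 for Col1a1, -0.17 to 0.16 for Col4a1, -0.20 to 0.13 for Col4a2, -1.11 to 0.44 for Col6a1, -1.48 to 0.44 for Col6a2, -1.92 to 0.19 for Col6a3, -0.65 to 1.41 for Col6a5, -2.68 to 0.23 for Col8a1, -1.04 to 0.44 for Col8a2, -0.18 to 0.60 for Col12a1, -0.14 to 0.068 for Col16a1, -0.20 to 0.22 for Col26a1, -0.075 to 0.16 for Col11a1 and -0.048 to 0.16 for Col9a3. The cause was not tested. Col17a1 and Col10a1 had too few counts for the main edgeR fit, and neither was called by DESeq2 or with no filter beyond 1 count.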
